A study of Homo sapiens with 4 samples.

Results

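TFAP2A, TFAP2B and TFAP2C encode 3 of the AP-2 transcription factors, and they were followed through single-cell RNA counts of human embryonic stem cells and of blastoids made from them. These 3 genes were taken by name out of 23364 genes listed in any of the 4 count tables, and their counts were read in all 9680 cells in which at least 500 genes were detected. The first group was KhES1, an established line of human embryonic stem cells, grown on Matrigel in mTeSR-1 medium with 10 µM of the ROCK inhibitor Y27632 after passage (2 samples, hESC 1 and hESC 2). The blastoids (2 samples, blastoid 3 and blastoid 4) were KhES1 cells aggregated in microwells for 24 h with 10 µM Y27632. The aggregates were then embedded in a hydrogel, cultured for 3 days in DMEM with 10% FBS and afterwards kept in iBlastoid medium. A blastoid is an aggregate grown to resemble the blastocyst. All samples share 1 cell line, the labels do not say how many blastoids were pooled or whether samples came from separate cultures, and p-values therefore measure only the spread between these samples. The titles and the file names of the blastoid samples give different days, so no day is used here.

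AP-2 proteins bind GC-rich DNA as homodimers or heterodimers through a helix-span-helix region that the family shares, and they activate or repress the genes nearby. TFAP2C is known in trophectoderm, the outer layer of the blastocyst, and in primordial germ cells and naive pluripotent cells. TFAP2A is known in trophoblast, amnion, surface ectoderm and neural crest, and TFAP2B in neural crest, kidney and amnion-like cells.

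The genes lie apart in the genome. In the RefSeq annotation of GRCh38.p14, TFAP2A occupies chr6:10396677-10419659 on the minus strand, TFAP2B chr6:50818355-50847619 on the plus strand and TFAP2C chr20:56629306-56639283 on the plus strand. The longest run of bases shared by any transcript of TFAP2A and any of TFAP2B in the GENCODE 29 annotation of GRCh38 is shown because it bears on whether a read can be told apart between members. It is 31 bases of coding sequence, at chr6:10398517-10398547 in TFAP2A (minus strand) and chr6:50843250-50843280 in TFAP2B (plus strand), in exon 7 of the transcripts TFAP2A-202 and TFAP2B-202.
TFAP2A and TFAP2B: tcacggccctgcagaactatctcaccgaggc
The longest run shared by TFAP2A and TFAP2C was 14 bases, and the longest shared by TFAP2B and TFAP2C was 26 bases. Of the 8309 different 31-base words in TFAP2A transcripts, 1 was also in TFAP2B and 0 were in TFAP2C. The antisense genes TFAP2A-AS1 and TFAP2A-AS2 overlap TFAP2A on the other strand. The sources used here do not state whether counting used strand, so reads of TFAP2A and of these genes cannot be told apart with certainty. Both antisense genes were low in the blastoids, TFAP2A-AS1 at 0.726 and 1.09 CPM (UMIs scaled to the same library total, with TMM) and TFAP2A-AS2 at 1.03 and 0.931.

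The 250 bases before the more upstream of the TFAP2A starts in the RefSeq promoter table (chr6:10419660-10419909, minus strand, GRCh38.p14) are shown because this member was absent from both stem cell tables and was the most abundant member in the blastoids. The capitals mark a TATAAA, 30 bases before the start.
TFAP2A: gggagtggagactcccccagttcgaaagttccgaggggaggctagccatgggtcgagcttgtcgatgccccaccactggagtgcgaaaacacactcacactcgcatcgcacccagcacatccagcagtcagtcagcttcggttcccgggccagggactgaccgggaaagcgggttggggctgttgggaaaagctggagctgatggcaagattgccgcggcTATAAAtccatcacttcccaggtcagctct
Of 35116 RefSeq windows of the same length, 10.7% hold TATAAA on either strand. Neither strand of the window holds the AP-2 motif GCCNNNGGC, which 19.8% of windows hold. The GATA motif AGATAA, in 9.17% of windows, is not in it either. The same was so for the TEAD motif GGAATG, in 11.9% of windows. The window of the other listed TFAP2A start (chr6:10412392-10412641, minus strand) holds neither TATAAA nor any of these motifs. TFAP2C had no entry in the promoter table.

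The depth and the cells limit what follows. The samples held 2265 to 3175 stem cells and 1951 to 2289 blastoid cells, with a median of 4996 to 8828 UMIs per cell (a UMI is a tag that counts a molecule once), and blastoid 4 was the deepest. Within each group the samples shared cell barcodes: 1317 between the stem cell samples and 1035 between the blastoid samples, against 6 to 14 between samples of different groups. All 1035 of the blastoid copies had at least 500 genes in blastoid 4 and none did in blastoid 3. Leaving out every shared barcode thus removes most of blastoid 4. Without them TFAP2A was in 26.3%, TFAP2B in 17.2% and TFAP2C in 10.4% of the remaining 916 cells of blastoid 4, TFAP2C was in 1.88% of those of hESC 2, and the shares in hESC 1 and blastoid 3 were as with all cells. Barcodes called doublets by Scrublet (73 of 9680, 0.754%) were kept, and an alternative leaves them out. POU5F1, the pluripotency factor that marks the labelled stem cells, was at 1228 and 1177 normalized CPM in the stem cell samples and at 55.5 and 89.9 in the blastoids.

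TFAP2A and TFAP2B were not listed in either stem cell table, and both were found in the blastoids. TFAP2A had a UMI in 437 of 2289 cells of blastoid 3 (19.1%, exact 95% interval 17.5 to 20.8) and in 648 of 1951 cells of blastoid 4 (33.2%, 31.1 to 35.4). TFAP2B had a UMI in 180 cells of blastoid 3 (7.86%) and in 393 cells of blastoid 4 (20.1%). TFAP2C was the member that the stem cells already had, in 98 cells of hESC 1 (4.33%) and 92 of hESC 2 (2.9%), and it was in 207 cells of blastoid 3 (9.04%) and 320 of blastoid 4 (16.4%). Blastoid 4 was above blastoid 3 for all 3. Intervals cover counting error only, and an exact two-sided permutation test of 2 samples against 2 cannot go below p = 0.33, the value that each member gave.

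These shares rise with depth, so cells were also thinned to 2000 UMIs each, which left 1830, 2202, 2181 and 1909 cells. TFAP2A was then in 8.62% of blastoid 3 cells and 12.8% of blastoid 4 cells, TFAP2B in 3.21% and 7.39%, and TFAP2C in 3.44% and 4.14%. TFAP2C was in 0.984% and 1.04% of the thinned stem cells.

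**Figure D1:**
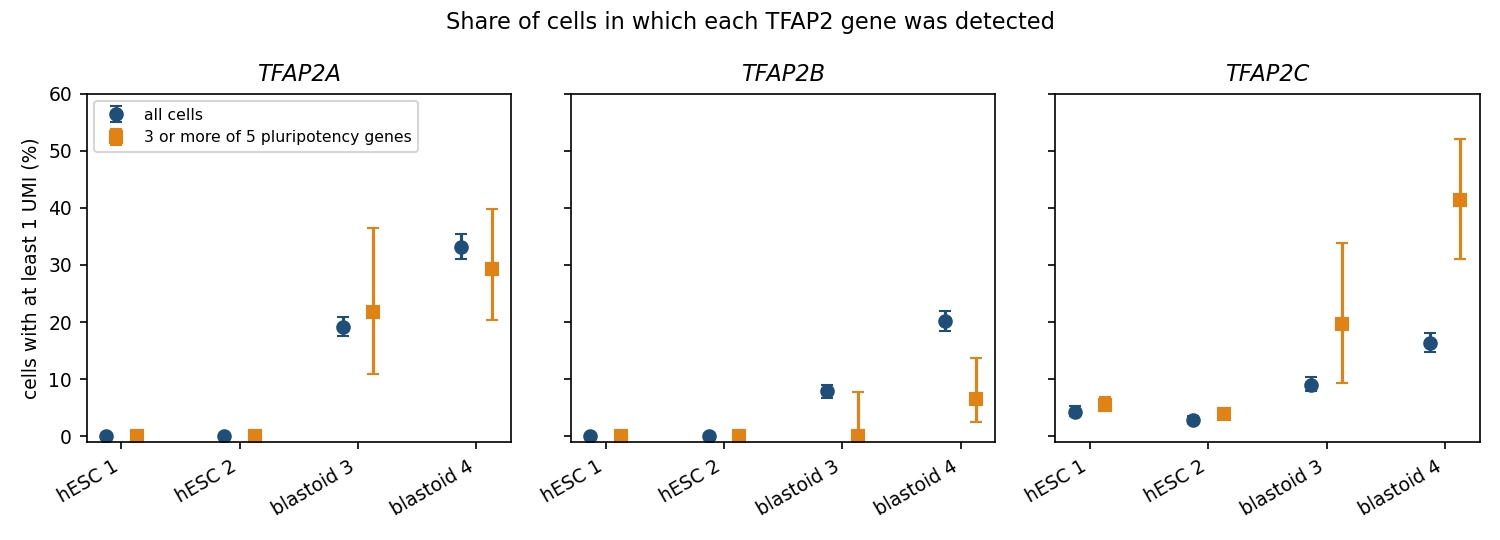
Share of cells (%) with at least 1 UMI of each TFAP2 gene in the 4 samples, over all cells with at least 500 genes (circles) and over cells with 3 or more of 5 pluripotency genes (squares), with exact 95% intervals. TFAP2A and TFAP2B are at 0 in both stem cell samples, and the square for TFAP2C in blastoid 4 (41.3%) stands above its circle (16.4%).

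The summed counts gave the same order of groups. In normalized CPM (UMIs summed per sample, library sizes scaled by TMM), TFAP2A was at 0, 0, 58.8 and 88 in hESC 1, hESC 2, blastoid 3 and blastoid 4. TFAP2B was at 0, 0, 17.6 and 45.3, and TFAP2C at 7.81, 6.1, 20 and 23.9. Both blastoid samples lay above both stem cell samples for every member, but the groups did not overlap for 78.2% of all genes tested, so this sets no member apart. TFAP2C was higher in blastoids by 1.66 ± 0.19 on the log2 scale (SE, edgeR quasi-likelihood test, adjusted p = 0.000403). TFAP2A (adjusted p = 1.59e-05) and TFAP2B (adjusted p = 0.000339) were also called, and passed the filter on low counts only through the blastoids. The filters of the tables are not given in the sources used here. It was assumed from the values that a gene missing from a stem cell table had at most 2 counts there. The fold bounds rest on this assumption. Set against the 95% limit that 2 counts in each of both tables allow (9.15 counts in all, exact), TFAP2A was at least 228-fold and TFAP2B at least 98.6-fold higher in blastoids. Of all 16368 genes tested, 50.3% were called in either direction, 27.3% higher and 23% lower in blastoids, so a call by itself sets no gene apart here.

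Cells were also grouped into clusters without using the 3 genes, and named from fixed markers. Over the 7 clusters with at least 20 cells in each blastoid sample, all 3 members were highest per UMI (CPM) in cluster 4, called trophectoderm/amnion-like (442 and 657 cells, 11 of 12 markers detected, among them GATA3, KRT7, ISL1, GABRP and VTCN1). TFAP2A was in 69.7% and 80.7% of its cells in blastoid 3 and blastoid 4, TFAP2B in 39.1% and 57.7%, and TFAP2C in 32.1% and 37.6%. By share of cells TFAP2C was not highest there in blastoid 4, since it was in 39.2% of the cells of cluster 11. Of all UMIs in blastoid cells, this cluster held 82.5% and 90.1% of TFAP2A, 96.9% and 96.6% of TFAP2B, and 79.5% and 79.6% of TFAP2C. The markers used do not separate trophectoderm from amnion. The clusters were made from the same cells, so the levels are a description with no test.

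In CPM of summed UMIs without TMM, TFAP2A was at 268 and 227 in cluster 4 and next at 69.4 and 29.6 in cluster 11, the pluripotent-like cells of blastoids (64 and 97 cells, leading genes NODAL and TMPRSS11E). In the 5 mesoderm/mesenchyme-like clusters it was between 7.72 and 22.4. Of these, clusters 3 and 6 (7.72 to 11.6) lay below clusters 7 and 10 (13.6 to 21.1), and cluster 12 (22.4 and 9.74) overlapped both. TFAP2B fell off more steeply, from 94.1 and 125 in cluster 4 to 3.09 and 3.12 in cluster 11 and 0 to 3.78 in the mesoderm/mesenchyme-like clusters. TFAP2C was at 87.7 and 54.4 in cluster 4, at 23.1 and 38.2 in cluster 11, and at 0 to 11.2 in the others. For TFAP2A and TFAP2C the order of cluster 4, cluster 11 and the rest was the same in both samples, without overlap. For TFAP2B, cluster 11 overlapped the mesoderm/mesenchyme-like clusters.

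**Figure D2:**
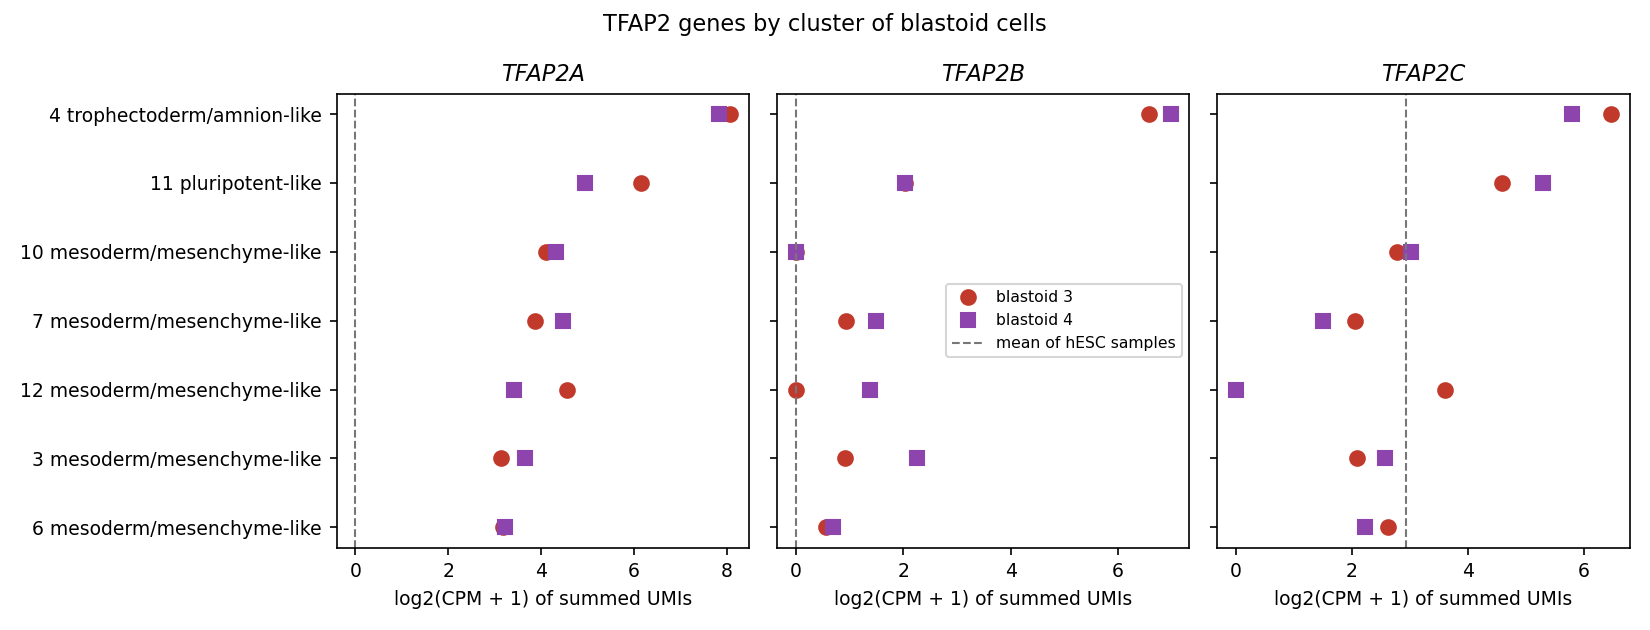
Level of each TFAP2 gene, as log2 of CPM of summed UMIs plus 1, in the 7 clusters with at least 20 cells in each blastoid sample (circles, blastoid 3; squares, blastoid 4; dashed line, mean of the stem cell samples). Cluster 4 is highest for all 3 genes on this scale, and the pluripotent-like cluster 11 is next for TFAP2A and TFAP2C.

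The proportions between members also differed by cluster. For each 100 UMIs of TFAP2A, the trophectoderm/amnion-like cells had 35.2 (blastoid 3) and 55.1 (blastoid 4) UMIs of TFAP2B, 32.8 and 23.9 of TFAP2C, and 131 and 127 of GATA3, a partner of these factors in trophectoderm. In the mesoderm/mesenchyme-like cells the same 100 UMIs came with 5.74 and 16.1 of TFAP2B and with 478 and 482 of GATA3. In all pluripotent-like blastoid cells (83 and 103 cells) they came with 4.17 and 22 of TFAP2B, 33.3 and 120 of TFAP2C, and 6.25 and 12.2 of GATA3. For each UMI of TFAP2A there was thus more GATA3 in the mesoderm/mesenchyme-like cells than in the pluripotent-like cells. GATA3 itself was at 351 and 288 CPM without TMM in trophectoderm/amnion-like cells and 50.4 and 54.4 in mesoderm/mesenchyme-like cells. In the pluripotent-like cells it was at 4.49 and 3.85. The proportions are totals over the cells of a kind and do not say whether the same cells held both genes. Counts of 2 to 9 UMIs stand behind the small values for TFAP2B and GATA3 in the pluripotent-like cells.

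By a fixed rule, the genes most like each member were those with the highest Pearson correlation of log2(CPM + 1) over these 7 clusters in the sample where it was lower, among 9907 genes. The 5 for TFAP2A were ATP6V1G1, CYBA, FTH1, CPVL and ABHD11, the first with r = 0.975 in blastoid 3 and 0.966 in blastoid 4. Those for TFAP2B were RBPMS (0.994 and 0.990), VTCN1, NUAK2, HPS1 and AKTIP, and VTCN1 encodes a B7-family surface protein found in amnion and placenta. Those for TFAP2C included ATXN7L1 (0.951 and 0.970), CLDN4, RASGEF1B and GRHL1. GRHL1 is an epithelial transcription factor and CLDN4 is a tight-junction protein. Between members r was 0.876 and 0.888 for TFAP2A and TFAP2B, 0.973 and 0.777 for TFAP2A and TFAP2C, and 0.859 and 0.627 for TFAP2B and TFAP2C. The clusters share libraries and 1 of them holds most of the signal, so these are descriptions.

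In single blastoid cells the members were often found together. In blastoid 3, 137 cells had both TFAP2A and TFAP2B, where independent detection at the same shares gives 34.4. In blastoid 4 there were 320 such cells against 131. TFAP2A was in 76.1% of the cells with TFAP2B and in 14.2% of those without in blastoid 3, and in 81.4% and 21.1% in blastoid 4. TFAP2A and TFAP2C were both in 121 cells of blastoid 3 (39.5 under independence) and 244 of blastoid 4 (106 under independence). TFAP2B and TFAP2C were both in 61 and 143 cells (16.3 and 64.5). All 3 were found in 51 and 125 cells, and at least 1 in 24.3% and 39.9% of cells.

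Within the cluster the ratio to independence was nearer to 1, and it has less room there, since a gene found in most cells limits how far the ratio can rise. Among trophectoderm/amnion-like cells alone, the number with both genes divided by the number under independence was 1.1 and 1.02 for TFAP2A and TFAP2B, 1.13 and 1.11 for TFAP2A and TFAP2C, and 1.06 and 0.99 for TFAP2B and TFAP2C. Over all blastoid cells the same ratios were 3.99 and 2.45, 3.06 and 2.3, and 3.75 and 2.22. The pair that stayed farthest above 1 was TFAP2A and TFAP2C: within the cluster, TFAP2C was in 36.4% of cells with TFAP2A and 22.4% of those without in blastoid 3, and in 41.9% and 19.7% in blastoid 4. More genes are detected in deeper cells. After thinning to 2000 UMIs the ratios for this pair within the cluster were 1.18 and 1.27, from 24 and 26 cells with both.

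**Figure D3:**
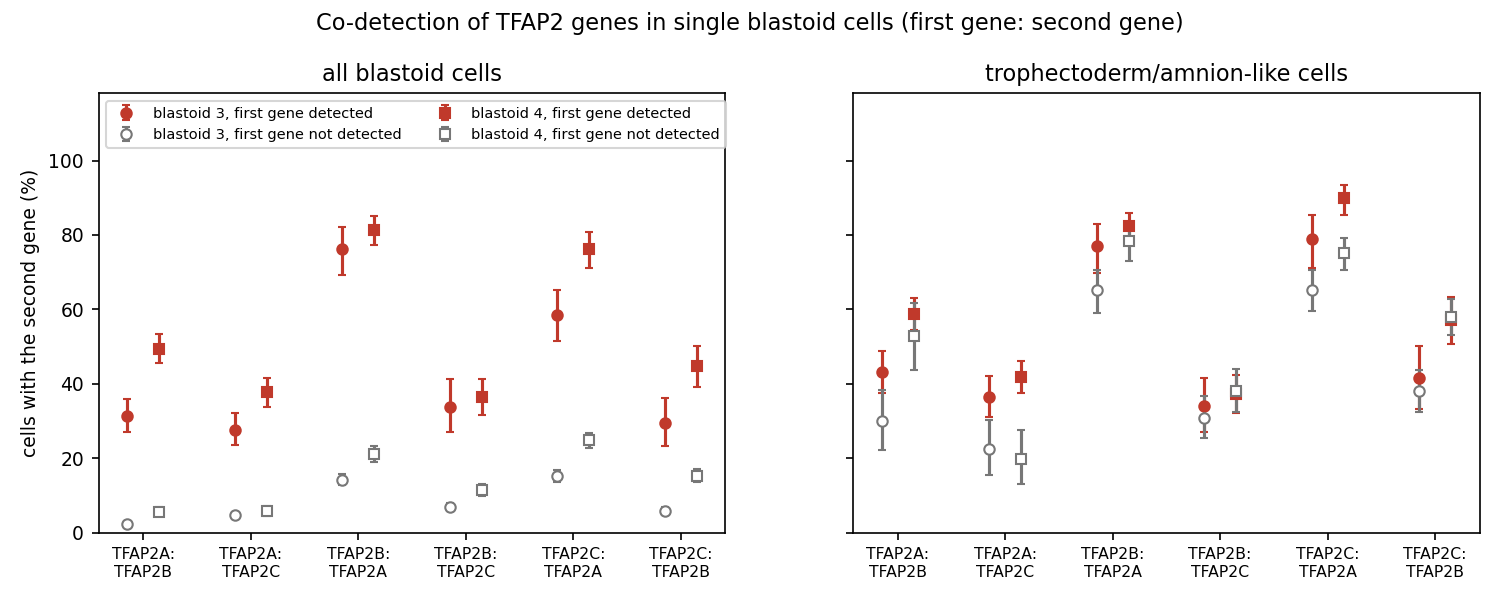
Share of blastoid cells (%) with the second gene of each pair among cells with (red) and without (grey) the first gene, with exact 95% intervals, over all blastoid cells and over trophectoderm/amnion-like cells (circles, blastoid 3; squares, blastoid 4). The red and grey points lie far apart on the left, and on the right the intervals stay apart in both samples only for TFAP2A and TFAP2C.

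Cells with TFAP2C but no TFAP2A were fewer and of mixed kind. There were 86 in blastoid 3 and 76 in blastoid 4, against 121 and 244 with both genes. Of the cells with both, 92.6% and 91% were trophectoderm/amnion-like. Of the cells with TFAP2C alone, 34.9% and 32.9% were, and 10.5% and 31.6% were pluripotent-like. In CPM of summed UMIs without TMM, POU5F1 was at 187 and 458 in the cells with TFAP2C alone and at 68.3 and 99 in those with both. GATA3 had the opposite order, at 164 and 102 in the former and 328 and 292 in the latter. GABRP, a GABA receptor subunit found in amnion, was at 97.7 and 106 against 283 and 291. A cell without a UMI of TFAP2A may still hold its RNA, since the median depth of the TFAP2C-only cells was 6883.5 and 10214.5 UMIs.

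The counts per cell were low. The largest number of TFAP2A UMIs in a cell was 12 in blastoid 3 and 11 in blastoid 4, and for TFAP2B it was 6 and 9. For TFAP2C it was 25 in blastoid 3, where the next cell had 8, and 6 in blastoid 4. The cell with 25 TFAP2C UMIs had 0 of TFAP2A and TFAP2B among its 15108 UMIs. It held 24 UMIs of GATA3, 50 of CGA (the shared subunit of glycoprotein hormones), 4 of GCM1 and 9 of ERVW-1 (syncytin-1), both genes of syncytiotrophoblast formation, and 0 of GABRP and ISL1. It was not called a doublet. The cell, CGA, GCM1 and ERVW-1 were chosen after their values had been seen, and the other top cells, 2 for TFAP2A, 2 for TFAP2B and 1 for TFAP2C, had 0 of all 3 of these genes.

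The blastoid cells that still looked pluripotent were taken as those with 3 or more of POU5F1, SOX2, NANOG, TDGF1 and PRDM14 detected (gated cells). There were 46 in blastoid 3 and 92 in blastoid 4, and 1467 and 1769 in the stem cell samples. The gated blastoid cells were deeper, with a median of 11100 and 13788 UMIs against 6903 and 6493. POU5F1 was at 947 and 955 normalized CPM in gated blastoid cells and at 1201 and 1156 in gated stem cells, given with no test because the gate uses this gene. Of the gated blastoid cells, 89.1% and 94.6% were in pluripotent-like clusters.

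TFAP2A was found in gated blastoid cells and in none of the gated stem cells. It was in 10 of 46 cells of blastoid 3 (21.7%, 10.9 to 36.4) and in 27 of 92 of blastoid 4 (29.3%, 20.3 to 39.8). TFAP2B was in 0 of 46 cells of blastoid 3, which allows a share of up to 6.52% (3 counts of the total; the exact interval reaches 7.71%), and in 6 of 92 of blastoid 4 (6.52%). TFAP2C was in 5.52% and 3.9% of the gated stem cells, in 9 gated cells of blastoid 3 (19.6%, 9.36 to 33.9) and in 38 of blastoid 4 (41.3%, 31.1 to 52.1). Thinned to 2000 UMIs, TFAP2A was in 3 gated cells of each blastoid sample (6.52% and 3.3%) and TFAP2C in 1 and 8 (2.17% and 8.79%), against 1.13% and 0.95% for TFAP2C in gated stem cells. The thinned TFAP2C value of blastoid 3 is 1 UMI (exact interval 0.055 to 11.5%), too few to show a change or its absence.

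In normalized CPM, gated TFAP2A was at 0, 0, 33.5 and 35.5 and gated TFAP2C at 7.79, 5.82, 18.6 and 41.2 in hESC 1, hESC 2, blastoid 3 and blastoid 4. TFAP2A was at least 86.1-fold higher in the gated blastoid cells by the same assumed upper limit, and it passed the filter on low counts only through the blastoids. TFAP2C was higher by 2.32 ± 0.31 on the log2 scale (adjusted p = 4.04e-06, edgeR). Without blastoid 4, this TFAP2C difference was 1.41 and was no longer called (adjusted p = 0.0678, edgeR), with the lone blastoid sample assumed to vary like the other group. With shared barcodes left out it was 1.58 (adjusted p = 0.0361, edgeR). TFAP2B, with 9 UMIs in gated cells of blastoid 4 and 0 elsewhere, did not pass the filter. It was called without that filter by edgeR (adjusted p = 0.000181) and DESeq2 (adjusted p = 0.013), and with a gate of 2 genes (adjusted p = 9.87e-06, edgeR), from UMIs of the blastoids alone. Of the 13651 genes tested between gated cells, 22.4% were called in either direction, 12.1% higher and 10.4% lower in blastoids.

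RNA of other blastoid cells can enter a droplet, so values of other genes are given beside these. In the gated cells of blastoid 3 and blastoid 4, GATA3 had 2 and 7 UMIs (4.35% and 6.52% of cells) and TFAP2A 18 and 44. In the trophectoderm/amnion-like cells GATA3 had 1052 and 1835 UMIs and TFAP2A 802 and 1449. For each 100 UMIs of TFAP2A, GATA3 had 11.1 and 15.9 in gated cells and 131 and 127 in trophectoderm/amnion-like cells. In mesoderm/mesenchyme-like cells TFAP2A was in 5.9% and 7.57% of cells, at a median of 6183 and 8415 UMIs. In CPM without TMM, TFAP2A was at 35.3 and 35.1 in gated cells and at 10.6 and 11.3 in mesoderm/mesenchyme-like cells. Of the 8 trophectoderm circuit genes, 5 and 7 were above 0 in the gated cells of blastoid 3 and blastoid 4. Their summed level was 205 and 356 normalized CPM against 179 and 157 in gated stem cells. Most of each sum was KRT19, at 138 and 282 in gated blastoid cells and 149 and 128 in gated stem cells. Of the 9 amnion genes, 7 and 9 were above 0, with a sum of 101 and 207 against 24 and 20.8. BAMBI made most of this sum in blastoid 3, and IGFBP3 (90.4) and BAMBI most of it in blastoid 4. In the other blastoid cells the sums were 1141 and 1951 for the trophectoderm circuit and 874 and 1172 for amnion. KRT7, VGLL1 and WNT6 were at 0 in gated cells of blastoid 3 and at 10.5, 0.807 and 0.807 in those of blastoid 4. CDX2 was at 27.9 and 21.8 and BAMBI at 78.2 and 54.9 in gated cells of blastoid 3 and blastoid 4. Barcodes with under 500 genes held TFAP2A at 88 and 55.9 CPM in blastoid 3 and blastoid 4, from 40 and 3 UMIs. Of the 40, 33 were on barcodes that also occur in blastoid 4. The part of RNA from other cells in the gated TFAP2A level was not tested.

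Within the blastoids, gated cells were compared with all other cells, with the sample as a block. This comparison and the comparison of gated cells between groups share the gated blastoid sums and are not independent. TFAP2A was at 34.5 and 36.9 normalized CPM in gated cells and 61.9 and 95.7 in the other cells, and fell by 1.22 ± 0.19 on the log2 scale (adjusted p = 1.93e-09, edgeR). TFAP2B was at 0 and 7.54 in gated cells and 18.9 and 50 in the others, and fell by 2.96 ± 0.37 (adjusted p = 2.31e-14). Gated and other cells did not overlap for either gene, as for 59.1% of all genes tested. The other cells were of several kinds, and gated TFAP2A was not below all of them. In CPM without TMM it was at 35.3 and 35.1 in gated cells and at 268 and 227 in trophectoderm/amnion-like cells. In mesoderm/mesenchyme-like cells it was at 10.6 and 11.3. By share of cells, TFAP2A was in 21.7% and 29.3% of gated cells and in 19% and 33.4% of the other cells. With all shared barcodes left out, which leaves 7 gated cells in blastoid 4, the TFAP2A difference was -0.91 and was not called (adjusted p = 0.244, edgeR). With a gate of 2 genes it was -0.53 (adjusted p = 0.00092). Of 14626 genes tested, 30.1% were called in either direction, 13.8% higher and 16.3% lower in gated cells.

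TFAP2C did not follow the other members. It was at 19.2 in gated and 20.8 in other cells of blastoid 3, and at 42.7 and 23.5 in blastoid 4. The fitted difference was 0.59 ± 0.24 (adjusted p = 0.0418, edgeR), but the samples went opposite ways, with -0.15 in blastoid 3 alone and 0.84 in blastoid 4 alone, neither of which can be tested. The call was lost without the block (adjusted p = 0.238), by DESeq2 (adjusted p = 0.728) and with shared barcodes left out (adjusted p = 0.955), among other settings. TFAP2C therefore cannot be placed above or below its level in the other cells. In steps of the number of pluripotency genes detected, from 0 to 5, TFAP2C was in 14%, 19.4%, 30%, 31%, 44.9% and 50% of blastoid 4 cells. In blastoid 3 the shares were 8.16%, 13.6%, 7.14%, 14.3%, 16.7% and 37.5%, from 8 cells at the last step. The median depth rose over the same steps from 8391 to 14630 UMIs in blastoid 4 and from 6052 to 11970.5 in blastoid 3, and its part in the rise was not tested. TFAP2B went the other way in blastoid 4, from 20.5% at 0 genes to 4.08% at 4 genes and 0 of 14 cells at 5.

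**Figure D4:**
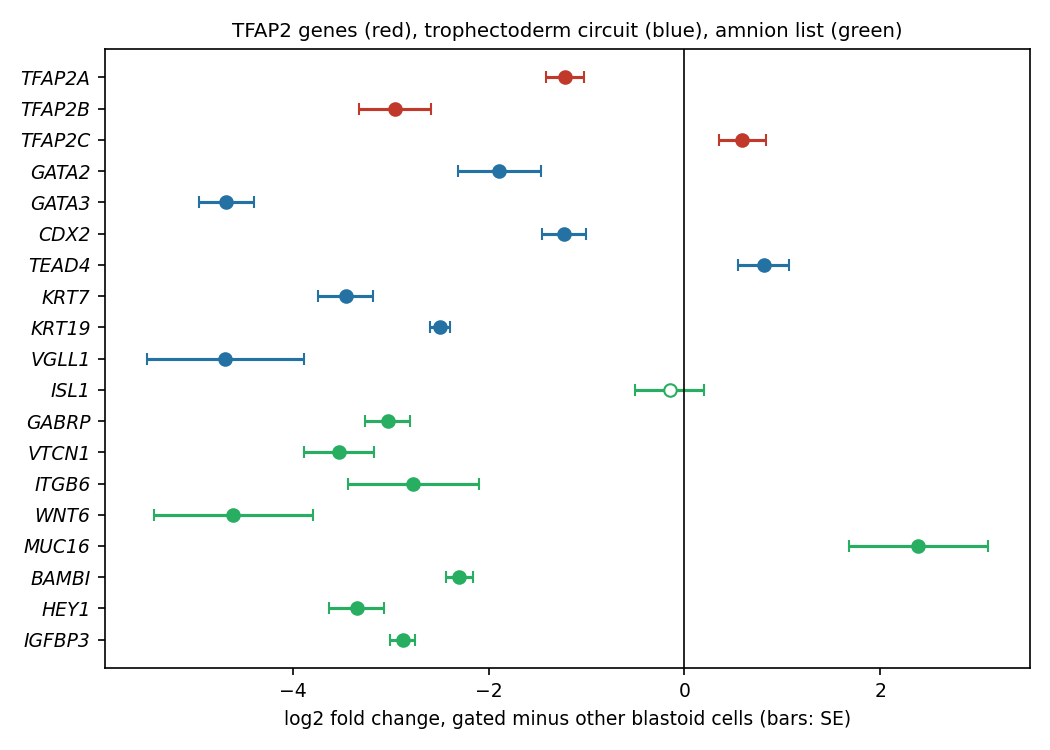
Log2 fold change (bars, SE) between gated and other blastoid cells for the TFAP2 genes (red), tested genes of the trophectoderm circuit list (blue) and of the amnion list (green), with open points for genes not called. TFAP2A (-1.22) lies near CDX2 (-1.23), and GATA3 (-4.68) lies far below both.

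Within the gated cells TFAP2A and TFAP2C were together in 1 cell of blastoid 3, where independence gives 1.96, and in 16 cells of blastoid 4, where independence gives 11.2. The exact intervals for TFAP2C among gated cells with and without TFAP2A overlapped in both samples (0.253 to 44.5% against 10.1 to 39.2%, and 38.8 to 77.6% against 22.6 to 46.6%).

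The genes that work with AP-2 factors in trophectoderm are GATA2, GATA3, CDX2, TEAD4 and VGLL1, with KRT7, KRT19 and ELF5 as its products and markers. Between all cells 7 of these 8 rose in blastoids and 0 fell, where 27.3% of all genes tested rose. The 5 at 0 in both stem cell samples (GATA2, GATA3, CDX2, ELF5 and VGLL1) passed the filter only through the blastoids and could only be called higher. The list's median log2 difference was 8.73 as fitted and 4.09 with genes at 0 in the stem cells set to their bound, against 0.05 for all genes. CDX2, which drives trophectoderm and also caudal mesoderm, went from 0 in both stem cell samples to 62.3 and 49.4 normalized CPM. Within the blastoids 6 of 7 tested fell in gated cells and TEAD4 rose, with a list median of -2.5 against -0.09 for all genes. Of all genes tested within the blastoids, 16.3% fell and 13.8% rose. GATA3 fell by 4.68 ± 0.28 (3.83 and 5.86 in gated, 106 and 147 in other cells, adjusted p = 3.96e-61) and CDX2 fell by 1.23 ± 0.22 (28.7 and 22.6 against 65.9 and 53.6, adjusted p = 2.86e-07, edgeR). Between gated cells of the 2 groups, 3 of the 4 tested rose and 0 fell, namely CDX2, TEAD4 and KRT19. Of all genes tested there, 12.1% rose. CDX2 was at 0 in both gated stem cell samples, passed the filter only through the blastoids and could only be called higher. GATA2, GATA3, ELF5 and VGLL1 did not pass the filter there, and GATA3 was at 3.72 and 5.65.

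Of the 9 amnion genes, all 9 rose in blastoids between all cells (median 7.49 as fitted, 5.16 with bounds), and 4 of them were at 0 in both stem cell samples and could only be called higher. Among all genes tested there, 27.3% rose. In gated cells against other blastoid cells 7 of 9 fell, MUC16 rose from low counts and ISL1, an early amnion factor, was not called (-0.15 ± 0.35). Among all genes tested within the blastoids, 16.3% fell and 13.8% rose. ISL1 was at 3.83 and 17.6 in gated and 12.7 and 15 in other cells, so it differed between the samples as TFAP2C did. Between gated cells of the groups 5 of 6 rose and GABRP was not called, where 12.1% of all genes tested rose. ISL1 was at 0 in both gated stem cell samples there and could only be called higher. MSX2, a BMP-responsive factor of the neural crest list, was at 83.8 and 76.7 in gated blastoid cells and 0.481 and 0.41 in gated stem cells (7.42 ± 0.31, adjusted p = 4.65e-15, edgeR).

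Neural crest and surface ectoderm are the other tissues in which TFAP2A is known. Between all cells 6 of 8 tested neural crest genes rose in blastoids, 1 (FOXD3) fell and 1 (SOX10) was not called. Those that rose (SNAI2, SOX9, TWIST1, ETS1, MSX1 and MSX2) are also expressed in mesoderm and mesenchyme. The defining crest genes were near 0: SOX10 was at 0.666 and 0.274 normalized CPM in the blastoids, FOXD3 at 0 and 0.274, PAX3 at 0.787 and 0.383, and PAX7 at 0.121 and 0. Of 7 surface ectoderm genes 5 rose, EPCAM fell and GRHL2 was not called. Beside both lists, 27.3% of all genes tested between all cells rose and 23% fell. TP63, which defines the stratified epithelium, was at 0.726 and 0.931 in the blastoids. It was at 0 in both stem cell samples, passed the filter only through the blastoids and could only be called higher. KRT8, a simple epithelial keratin, went from 149 and 159 to 867 and 1421.

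Of 9 genes whose proteins bind AP-2 factors, 3 rose between all cells (CITED2, WWOX and KCTD1), 1 fell (YEATS4) and 5 were not called, with a median of 0.35 against 0.05 for all genes. Over all genes tested 27.3% were higher and 23% lower, so these counts lie near or below the background. CITED2, which links AP-2 to the acetyltransferases EP300 and CREBBP, went from 15.1 and 16.3 to 144 and 148 normalized CPM (3.21 ± 0.13, adjusted p = 6.13e-06, edgeR). EP300 was at 37.2 and 40.3 against 49.8 and 48.8 (0.35 ± 0.13, adjusted p = 0.055). Between gated cells CITED2 was still higher in blastoids, at 59.6 and 55.7 against 15 and 16.8 (1.84 ± 0.2, adjusted p = 2.62e-07), and the other 7 of 8 tested were not called. Among all genes tested between gated cells, 12.1% were higher and 10.4% lower in blastoids. Within the blastoids CITED2 and KCTD1, a repressor of AP-2 activity, fell in gated cells, YEATS4 rose and 6 were not called. There 16.3% of all genes tested fell and 13.8% rose, so these counts lie near the background too.

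Genes reported elsewhere as AP-2 targets moved in both directions. Between all cells 3 of 10 tested rose (IGFBP5, MMP2 and MCAM), 5 fell (ERBB2, ERBB3, KIT, CDKN1A and RET) and 2 were not called. The median was -0.41. Of all genes tested, 27.3% rose and 23% fell, so the share of targets that rose lies near the background. The share that fell, 5 of 10, lies above it, from few genes and with no test of the list. ERBB2, the receptor gene through which AP-2 was studied in breast cancer, fell by 1.71 ± 0.17 (54.9 and 73.3 in stem cells, 20.4 and 18.8 in blastoids, adjusted p = 0.000228, edgeR). It was as low in gated blastoid cells (20.5 and 18.6). IGFBP5 rose by 4.51 ± 0.49 (3.94 and 3.31 to 44.7 and 120, adjusted p = 0.000302). Within the blastoids 5 of 9 rose in gated cells, 2 fell (IGFBP5 and MMP2) and 2 were not called. Over all genes tested there, 13.8% rose and 16.3% fell, so the share of targets that rose lies above the background, again with no test. Between gated cells of the groups 3 rose, 1 fell and 5 were not called, where 12.1% of all genes tested rose and 10.4% fell.

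TFAP2C is known in germ cells and in naive pluripotency, and both lists were read in the gated cells. Of the germ cell genes tested between gated cells, 3 of 4 were higher in blastoids: PRDM1 (2.88 ± 0.43), SOX15 and KLF4. PRDM1, a germ cell and trophoblast repressor, was at 2.4 and 1.97 in stem cells and 9.31 and 19.4 in blastoids (adjusted p = 2.01e-05, edgeR). The defining germ cell genes were at or near 0 in gated blastoid cells, with NANOS3, DND1 and DAZL at 0 in both samples, DPPA3 at 0 and 1.61, and SOX17 at 3.72 and 0.807. DDX4 was in none of the tables. Of the naive genes tested, 4 of 5 were higher in gated blastoid cells (KLF5, SUSD2, TFCP2L1 and DPPA2), and DPPA5 was not called. ARGFX did not pass the filter and went the other way, from 1.64 and 0.902 in gated stem cells to 0 in both gated blastoid samples. KLF5, which is also active in trophectoderm, went from 0.962 and 2.05 to 35.4 and 87.2 (5.46 ± 0.35, adjusted p = 1.64e-11). KLF17 and DNMT3L, which define the naive state, were in none of the tables. Both lists hold few tested genes at low counts. Their medians were 2.2 and 1.9, against -0.01 for all genes. Of all genes tested between gated cells, 12.1% were higher in blastoids.

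The rest of the family added little. TFAP2E had 3 and 0 UMIs in the stem cells and 5 and 4 in the blastoids, and TFAP2D was in none of the tables.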

How the data were processed

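The deposited data are raw UMI counts, with a table for each sample (10x Chromium 3′ libraries, version 3.1 chemistry per the labels' protocols), with gene symbols as rows and barcodes as columns. Cell Ranger and GRCh38 are named in the submitters' processing notes, and versions and filters are not given in the sources used here. Each barcode had at most 20% mitochondrial UMIs. The members and lists were chosen with earlier results of these data known.

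Cells with at least 500 genes were kept. UMIs were summed per sample and tested with edgeR 4.0.16 (R 4.3.3; TMM, filterByExpr, quasi-likelihood test, Benjamini-Hochberg adjustment over all genes tested, called under 0.05), which was tested on simulated data first. Clusters came from scanpy 1.11.5 (2000 variable genes without the 3 members, 30 components, 15 neighbours, Leiden resolution 0.5, leidenalg 0.10.2). A cluster was named when at least 3 markers of a class, and more than of any other class, were each in 10% of its cells. It stayed unnamed if its leading genes held more markers of another class, or if it was shallow and they held none of its own. Unnamed clusters held 64.3% and 61.4% of the gated cells of hESC 1 and hESC 2. Rebuilt names may differ from the study's. Shares have Clopper-Pearson 95% intervals, and the limit for a share of 0 is 3 counts. Genes named are the members, the fixed lists and the 5 genes most like each member (pseudocount 1 CPM, in at least 5% of cells). A few genes that this rule names are not reported here, and the list counts and medians leave them out. Alternatives were DESeq2 1.42.0, library size without TMM, no filter, 1000 genes per cell, other gates and resolutions, doublet calls or shared barcodes left out, and each sample left out.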

Additional observations from a re-analysis of the deposited data

Results flagged for a closer look

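The members were also found in barcodes below the minimum of 500 genes, which no comparison uses. In the 1198 such barcodes of blastoid 3, TFAP2A was at 88 CPM (40 UMIs), TFAP2B at 35.2 (16 UMIs) and TFAP2C at 19.8 (9 UMIs). In the 120 of blastoid 4, TFAP2A was at 55.9 (3 UMIs), TFAP2B at 18.6 (1 UMI) and TFAP2C at 55.9 (3 UMIs). The 3676 and 4400 such barcodes of the stem cell samples held 0 UMIs of TFAP2A and TFAP2B, and TFAP2C at 4.16 and 6.1. They are given here because the blastoid levels lie above those of the stem cell samples. Of the UMIs in blastoid 3, 33 of 40 for TFAP2A, 13 of 16 for TFAP2B and 7 of 9 for TFAP2C were on barcodes that also occur in blastoid 4, as were 1035 of the 1198 barcodes themselves.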

How the results depend on the processing

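Of 230 alternative values, 198 kept their direction and their side of the threshold or stayed within the spread. With each sample left out in turn, the number of genes called between all cells ranged from 4424 to 10033 (8227 with all samples) and between gated cells from 1144 to 3318 (3064), and the lowest counts came without a stem cell sample. TFAP2C between gated cells ranged from 1.41 to 2.6. Within the blastoids, with 1 sample and no test, TFAP2A ranged from -1.4 to -0.88 and TFAP2C from -0.15 to 0.84, and TFAP2B gave no value without blastoid 4. DESeq2 called 1278 genes between gated cells and 1528 within the blastoids (4408 by edgeR), and leaving out shared barcodes gave 1418 and 842. Without the replicate block 2059 genes were called within the blastoids and TFAP2C was 0.60. TFAP2C within the blastoids also lost its call with library size only (0.57), no filter (0.56), DESeq2 (0.46), shared barcodes left out (0.15) and a gate of 2 genes (0.42). With shared barcodes left out TFAP2A there was -0.91, and its gated share differed by 18 percentage points between groups. Thinning to 2000 UMIs lowered the differences in shares to 10.7, 5.3 and 2.78 points for TFAP2A, TFAP2B and TFAP2C in all cells, and to 4.91 and 4.44 for TFAP2A and TFAP2C in gated cells. It lowered the share of blastoid cells with 2 members to 1.87% (TFAP2A and TFAP2B), 1.25% (TFAP2A and TFAP2C) and 0.652% (TFAP2B and TFAP2C). At both other Leiden resolutions the trophectoderm/amnion-like clusters held 79.9% of blastoid TFAP2C UMIs, against 79.5%. The causes of these differences were not tested. Leaving out only the shallower copy of a shared barcode, an alternative chosen after seeing the data, changed no call of a member, with 8224 and 3040 genes called between all cells and between gated cells. No paired analysis was possible between the groups because stem cell and blastoid samples share no replicate numbers. Detection of the members in single cells is limited by depth, and 46 gated cells in blastoid 3 leave wide intervals.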
